A study of Mus musculus with 3 samples.

Results

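The genes described here encode the proteasome. In the RefSeq gene table used, 44 of 21887 protein-coding genes had a symbol that begins with Psma, Psmb, Psmc, Psmd or Psme followed by a number, with Psmb8 and Psmb9 left out by the rule. They comprise 8 genes of the alpha rings (Psma), 9 of the beta rings (Psmb), 6 of the regulatory ATPases (Psmc), 11 of the regulatory non-ATPase subunits (Psmd), 3 of assembly chaperones (Psmd5, Psmd9 and Psmd10) and 4 of activators (Psme). The remaining 3 fit the rule by name and encode no known subunit. They are Psmc3ip, which acts in meiotic recombination, Psme3ip1, whose product binds the Psme3 activator, and Psme2b, a copy of Psme2. The 44 genes lie on 16 chromosomes, 10 of them on chromosome 11 and 6 on chromosome 14.

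Open chromatin was measured by ATAC-seq, which uses a transposase to cut accessible DNA, in hematopoietic stem cells (HSCs) sorted from adult mice and then cultured. All 3 groups came from poly(I:C)-treated mice of genotype Mx1-Cre-/-;mTORflox/flox, so that floxed mTOR alleles were present without the Cre that would delete them. One group received the solvent DMSO, one 200 nM AZD2014 (an ATP-competitive inhibitor of the mTOR kinase) and one 1 µM rapamycin (an allosteric inhibitor that acts through FKBP proteins). Each group is 1 library of 50000 cells, and the sources used here state neither the number of mice behind it nor the hours of treatment. Because a group is 1 library, replicate error cannot be estimated, so no test was made and every value below describes these libraries. The drugs were given at different doses, so their values stand side by side without a comparison of the compounds.

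The proteasome degrades proteins that carry ubiquitin chains. Its core particle, the 20S barrel, stacks outer alpha rings on inner beta rings, and the beta subunits Psmb5, Psmb6 and Psmb7 hold the proteolytic sites. The 19S regulatory particle recognises ubiquitin, removes it and threads the substrate into the barrel with a ring of ATPases, and the Psme activators are alternative caps. Interferon replaces the catalytic subunits by inducible forms, of which Psmb10 takes the place of Psmb7, and also induces Psme1 and Psme2, while poly(I:C) is an inducer of interferon. The transcription factor NFE2L1 activates proteasome genes when proteasome activity is short, and mTORC1 signalling has been linked to proteasome gene expression through it. In stem cells of the blood, protein synthesis and degradation are known to be tightly controlled.

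The authors deposited 1 list of peaks per library, and the DMSO list held 17189, the AZD2014 list 21321 and the rapamycin list 18233. Where 3 values are given without labels below, they stand in that order. Read totals are unknown, and a gene without a peak in a list had none above the authors' threshold there. A gene-end peak is one that overlaps the 2 stretches reaching 1 kb inward and outward from the ends of a gene. The score is the authors' own value for a peak, and it was used only to rank peaks within a list, where percentile 100 is the highest score. Of 10 HSC and progenitor marker genes, 5 had a gene-end peak in each list, near the 46.0%, 49.5% and 46.9% of all protein-coding genes. Kit, Mecom, Hlf and Meis1 had one in every list, and Procr, Slamf1 and Ly6a were among those with one in no list. The counts of the other markers are to be read beside the same shares of all genes. None of 5 mast cell and basophil markers had one under DMSO or AZD2014 and 1 of 5 had one under rapamycin, and of 6 neutrophil and monocyte markers 0, 0 and 2 had one. Erythroid markers had one at 3 of 4 genes and megakaryocyte markers at 2 of 3 in each list, B cell markers at 1, 2 and 2 of 4, T cell markers at 1 of 4 in each, and non-blood markers at 1, 2 and 1 of 4. The part of other cell types in the results below was not tested.

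Proteasome genes were marked by open chromatin in all libraries, and the set of marked genes was nearly the same in each. Of the 44 genes, 40, 40 and 39 had a gene-end peak. Over all protein-coding genes the shares were 46.0%, 49.5% and 46.9%. The same 39 genes had such a peak in all 3 lists (43.5% of all genes did), and 4 had none in any list (48.5% of all genes). No member was marked under AZD2014 and not DMSO (4.63% of all genes) or under DMSO and not AZD2014 (1.09%), and none was marked under rapamycin and not DMSO (3.05%). Only 4 members had no gene-end peak under DMSO, beside 11825 of all 21887 genes. Few members could thus gain a peak under a drug, and the absence of gains says little. The 1 gene marked under DMSO and not rapamycin (2.09% of all genes) was Psmb10. RefSeq start positions were matched for 37 members, and at 35, 34 and 34 of them a start lay inside a peak, beside 45.8%, 49.2% and 47.2% of all 17492 genes with a start. By the gene-end rule, 33 of the 34 members with a matched start and a DMSO gene-end peak had the start inside their highest-scoring one. So did 32 of 34 such members under AZD2014 and 32 of 33 under rapamycin. The centre of that peak lay a median of 79.5, 96.5 and 95 bp from the start.

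The 4 genes with no gene-end peak were Psma6, Psma8, Psmb11 and Psme2b. Psma8 encodes the testis form of an alpha subunit, and it had no peak in the gene or within 20 kb of it in any list. Psme2b, the copy of Psme2, also had none. Psmb11 encodes the catalytic subunit of the thymus form, and its surroundings held 3 peaks in each list. Those peaks lay at other genes, among them Psmb5, Acin1 and Cdh24. Psma6, which encodes an alpha ring subunit of all cells, is a different case. RefSeq gives it an outer start, with no peak, and an inner start inside the gene, where all 3 lists had a peak. The peak at the inner start of Psma6 scored 372 under DMSO (percentile 91.0), 406 under AZD2014 (85.6) and 359 under rapamycin (85.8). It is missed by the gene-end rule because the gene's span begins at the outer start. The 250 bases before the inner start of Psma6 are shown because the peak covers them in all 3 lists, with a match to the ETS motif in capitals.
Psma6, mm10 chr12:55398575-55398824, + strand: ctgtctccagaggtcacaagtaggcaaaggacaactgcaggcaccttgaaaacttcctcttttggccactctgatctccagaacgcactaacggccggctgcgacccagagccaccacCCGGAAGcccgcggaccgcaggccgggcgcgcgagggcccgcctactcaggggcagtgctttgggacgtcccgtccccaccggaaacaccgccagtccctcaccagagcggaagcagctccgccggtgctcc

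Psma3, another alpha ring gene, also had a RefSeq start inside its span, but this was the only start matched for it. Unlike Psma6, Psma3 was marked by the gene-end rule. Its gene-end peak lay near the outer limit of the span, 5896 bp from the RefSeq start under DMSO. A second peak lay at the RefSeq start itself, with scores of 316, 355 and 282 (percentiles 86.0, 81.3 and 78.0). The outer Psma3 peak scored 174, 200 and 89.3 (percentiles 63.9, 62.8 and 35.4). The outer peak thus stood below the inner one in every list.

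Psmb10, the interferon-inducible counterpart of Psmb7, was the only member whose gene-end status differed between lists. The DMSO list had a peak over its start (chromosome 8, 105938009 to 105938534, mm10) with a score of 50.4, where the lowest score of that list was 50.01. Its percentile there was 0.558, and neither drug list had a peak over the start. A second Psmb10 peak lay inside the gene in all 3 lists, with scores of 132, 155 and 64.0 (percentiles 52.9, 54.9 and 17.9). This inner peak reached the gene-end stretch under AZD2014, but stopped 4 bp short of it under DMSO and 2 bp short under rapamycin. The AZD2014 gene-end call at Psmb10 therefore came from the inner peak and the DMSO call from the weak peak at the start. With gene ends of 2500 bp the gene was marked in all 3 lists. The 250 bases before the start of Psmb10 are shown because the DMSO peak covered part of them and no peak of the other lists did. The capitals mark a match to the E-box CACGTG, 116 bases before the start, which the DMSO peak alone contained.
Psmb10, mm10 chr8:105938393-105938642, - strand: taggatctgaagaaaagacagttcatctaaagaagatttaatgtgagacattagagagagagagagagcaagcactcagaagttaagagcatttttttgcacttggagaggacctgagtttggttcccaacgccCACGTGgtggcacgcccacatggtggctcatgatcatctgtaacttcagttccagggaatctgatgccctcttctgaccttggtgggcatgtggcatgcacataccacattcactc

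**Figure D1:**
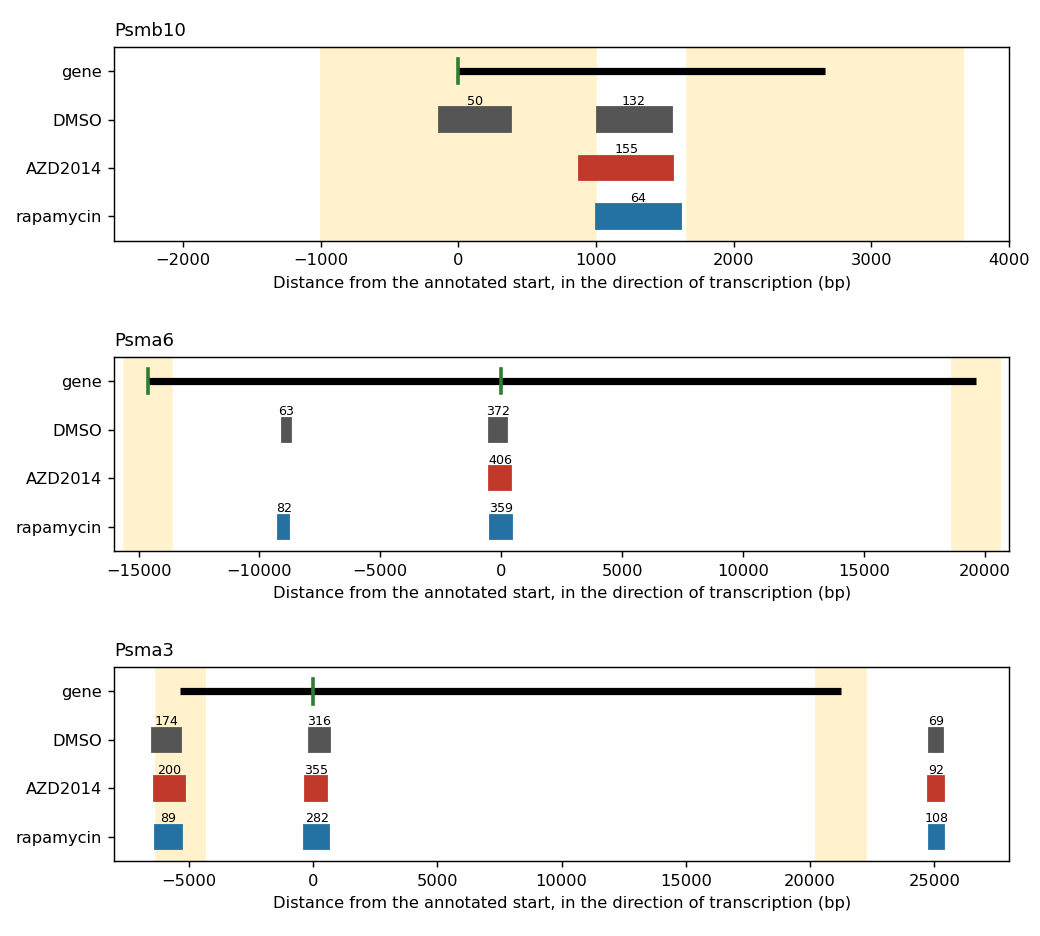
Peaks (bars, with the authors' score above each) at Psmb10, Psma6 and Psma3 in the 3 lists, by distance in bp from an annotated start in the direction of transcription. The black line is the gene, green ticks are RefSeq starts and yellow bands are the gene-end stretches. The Psmb10 peak at the start is in the DMSO list alone, and the peaks at the inner starts of Psma6 and Psma3 are in all 3 lists outside the yellow bands.

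The alpha ring genes stood in the upper part of each list, apart from Psma3 under rapamycin. Psma1 had the highest score of all members under DMSO, 441 (percentile 95.2), with 536 under AZD2014 (93.2) and 467 under rapamycin (93.4). Psma5 scored 402, 531 and 339 (percentiles 93.1, 93.1 and 83.9), and Psma2 scored 263, 532 and 423 (79.5, 93.1 and 90.8). All 6 marked alpha genes were in the upper 50% of the list by score under DMSO and AZD2014, and 5 of 6 were under rapamycin. Of all marked protein-coding genes, 75.6%, 80.8% and 77.8% were in the upper 50%.

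The beta ring genes stood lower than the alpha ring genes. Their median percentiles were 46.1, 58.9 and 58.6, against 78.9, 88.6 and 83.4 for the marked alpha ring genes. All of these medians are over 6 to 8 genes. Psmb10 entered the beta values with its weak start peak under DMSO (percentile 0.558) and its inner peak under AZD2014 (54.9). It did not enter under rapamycin, so the beta values are not over the same peaks in each list. Only 3 of 8 marked beta genes were in the upper 50% of the DMSO list (75.6% of all marked genes were). Under AZD2014 it was 6 of 8 (80.8%) and under rapamycin 4 of 7 (77.8%). The gene of the chymotrypsin-like subunit, Psmb5 (chromosome 14, 54614120 to 54617995), scored 74.0, 133 and 110, and was in the lower 50% of each list (percentiles 25.6, 49.6 and 44.0). Psmb6, the caspase-like subunit gene, scored 193, 285 and 222 (percentiles 67.7, 74.2 and 69.5), so that its place was about the same in each list. Psmb7, the trypsin-like subunit gene, scored 119, 200 and 280 (percentiles 48.3, 62.9 and 77.7). Psmb4, a non-catalytic subunit gene, had the lowest place of any member under rapamycin, with scores of 107, 135 and 55.1 (percentiles 43.5, 50.2 and 7.65). Psmb1 was in the lower 50% of each list with scores of 107, 118 and 108, and Psmb2 and Psmb3 were in the upper 50% of each.

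Of the ATPase genes, Psmc3, Psmc4, Psmc5 and Psmc6 stood between percentiles 73.1 and 90.3 in every list. Psmc6 scored 324, 476 and 402 (percentiles 87.1, 90.3 and 89.4). Psmc1 and Psmc2 stood lower, and most so under rapamycin. Psmc1 scored 193, 178 and 93.6 (percentiles 67.8, 59.4 and 37.5), and Psmc2 scored 116, 188 and 86.8 (47.1, 61.1 and 34.1).

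All 11 non-ATPase genes were marked in each list, as were 43.5% of all protein-coding genes. All 11 were in the upper 50% under DMSO (75.6% of all marked genes were) and AZD2014 (80.8%). Psmd3, a lid subunit gene, was among the highest members, with scores of 421, 631 and 413 (percentiles 94.2, 96.5 and 90.3). Psmd14, the gene of the lid deubiquitinase, scored 211, 288 and 202 (percentiles 71.4, 74.6 and 66.0). Psmd1, a scaffold gene of the base, scored 205, 204 and 90.5 (percentiles 70.2, 63.4 and 36.1), and Psmd4, a ubiquitin receptor gene, 173, 239 and 126 (63.6, 68.5 and 49.2). Psmd1 and Psmd4 were in the lower 50% of the rapamycin list alone. Psmd12, a lid subunit gene, went the other way, with scores of 172, 325 and 406 (percentiles 63.3, 78.5 and 89.8). Psmd8, also of the lid, scored 296, 507 and 485 (83.9, 91.8 and 94.1).

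The chaperone genes Psmd5 and Psmd10, whose products help to build the base, stood between percentiles 77.9 and 86.8 in all lists. Psmd9, the third chaperone gene, scored 117, 198 and 151 (percentiles 47.5, 62.6 and 56.0). Under AZD2014 the activators held both ends of the members' range. Psme2 had the highest place of any member under AZD2014, with scores of 370, 685 and 533 (percentiles 90.9, 97.6 and 96). Its partner in the 11S cap, Psme1, scored 121, 63.7 and 85.6 (percentiles 49.1, 16.4 and 33.4), the lowest place of any member under AZD2014. The Psme2 peak also lay at the end of Rnf31, a ubiquitin ligase gene, whereas the Psme1 peak lay at no other gene end. Psme3, of the nuclear 11S cap, and Psme4, which encodes the PA200 cap, stood between percentiles 69.8 and 76.0 in every list. Psme3ip1 had the highest place of any member under rapamycin (score 547, percentile 96.3), and its peak also lay at the end of Rspry1. Psmc3ip scored 268, 254 and 203 (percentiles 80.1, 70.4 and 66.1).

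**Figure D2:**
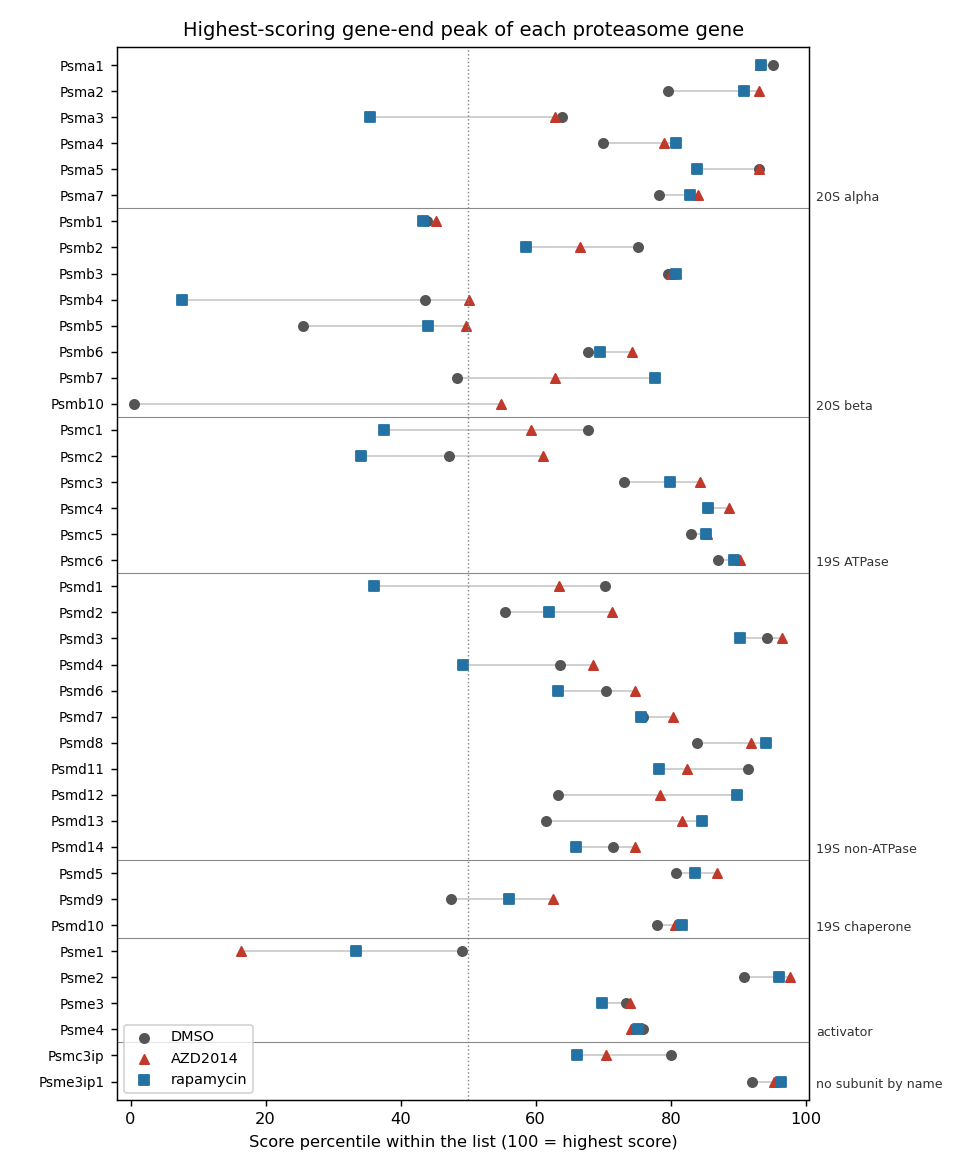
Score percentile within each list (x axis, 100 is the highest score) of the highest-scoring gene-end peak of the 40 marked genes, grouped by role, under DMSO (circles), AZD2014 (triangles) and rapamycin (squares). The dotted line is percentile 50, and Psmb4 under rapamycin, Psmb10 under DMSO and Psme1 under AZD2014 lie farthest to the left in their lists.

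As a group the marked members were ordinary among marked genes. Their median percentiles were 73.2, 76.6 and 77.7, beside 71.0, 75.1 and 72.6 for all protein-coding genes with a gene-end peak. In the upper 50% of the list were 32 of 40 members under DMSO (75.6% of all marked genes), 37 of 40 under AZD2014 (80.8%) and 30 of 39 under rapamycin (77.8%). Ranks in lists of different lengths do not show a change, so the lists were also compared over one set of regions. Overlapping peaks were merged into 24981 regions, and the 13670 regions with a peak in all 3 lists were ranked by score in each. Of the 44 genes, 40 had such a region at a gene end, none was shared by several members, and 8389 of these regions lay at an end of some protein-coding gene.

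Between DMSO and AZD2014, the median member region differed by -0.91 percentile points (AZD2014 minus DMSO), beside 0.20 over all 8389 gene-end regions. Of the 40 member regions, 19 (47.5%) stood higher and 21 lower under AZD2014, beside 51.2% higher over all gene-end regions. By 10 points or more, 5 stood higher (18.5% of all gene-end regions did) and 10 lower (15.9%). The 5 were Psmd13, Psma2, Psmd12, Psmd2 and Psmb5, with differences of 19.7, 15, 12.4, 11.2 and 10.6 points. The Psmd13 region held 2 adjacent peaks under DMSO and 1 in each drug list, and with scores summed over a region its AZD2014 difference turned to -7.20 points. At the low end were Psme1 (from percentile 36.6 to 2.72), Psmc1 (59.5 to 37.0), Psmc3ip (75 to 53.8), Psmb2 (68.8 to 48.0) and Psmd1 (62.6 to 43.0). Psma3, Psmb1, Psmb10, Psmd11 and Psme4 were the other 5 that stood 10 points or more lower.

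Between DMSO and rapamycin, the median member region differed by -1.60 points, beside 0.15 over all gene-end regions. Of the 40, 17 (42.5%) stood higher and 23 lower, beside 50.8% higher over all gene-end regions. The lower quartile of the members lay below that of all gene-end regions, although the lowest value of all, -56.2 points, was at no member. The middle 50% of the members ran from -17.4 to 5.47 points, beside -6.47 to 7.40 over all 8389, and under AZD2014 it ran from -7.89 to 5.63, beside -6.09 to 7.06. By 10 points or more, 7 member regions stood higher (19.3% of all gene-end regions did) and 13 lower (17.1%). On the high side, Psmb7 went from percentile 35.7 under DMSO to 70.2 under rapamycin, Psmd12 from 54.0 to 86.3 and Psmd13 from 51.7 to 79.5. Psmb5 and Psma2 followed, with differences of 13.8 and 13.5 points. On the low side, Psmd1 went from 62.6 to 18.8, Psmc1 from 59.5 to 20.2, Psma3 from 54.7 to 18.2, Psmb10 from 41.2 to 6.13 and Psmb4 from 30.1 to 2.06. The Psmb10 region is that of the inner peak, and the Psma3 region is the outer one. At its RefSeq start the difference was -11.7 points under either drug. With summed scores the rapamycin difference of Psmd13 was 0.88 points. The AZD2014 and rapamycin differences both use the single DMSO library, so the 2 values of a gene are not independent.

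**Figure D3:**
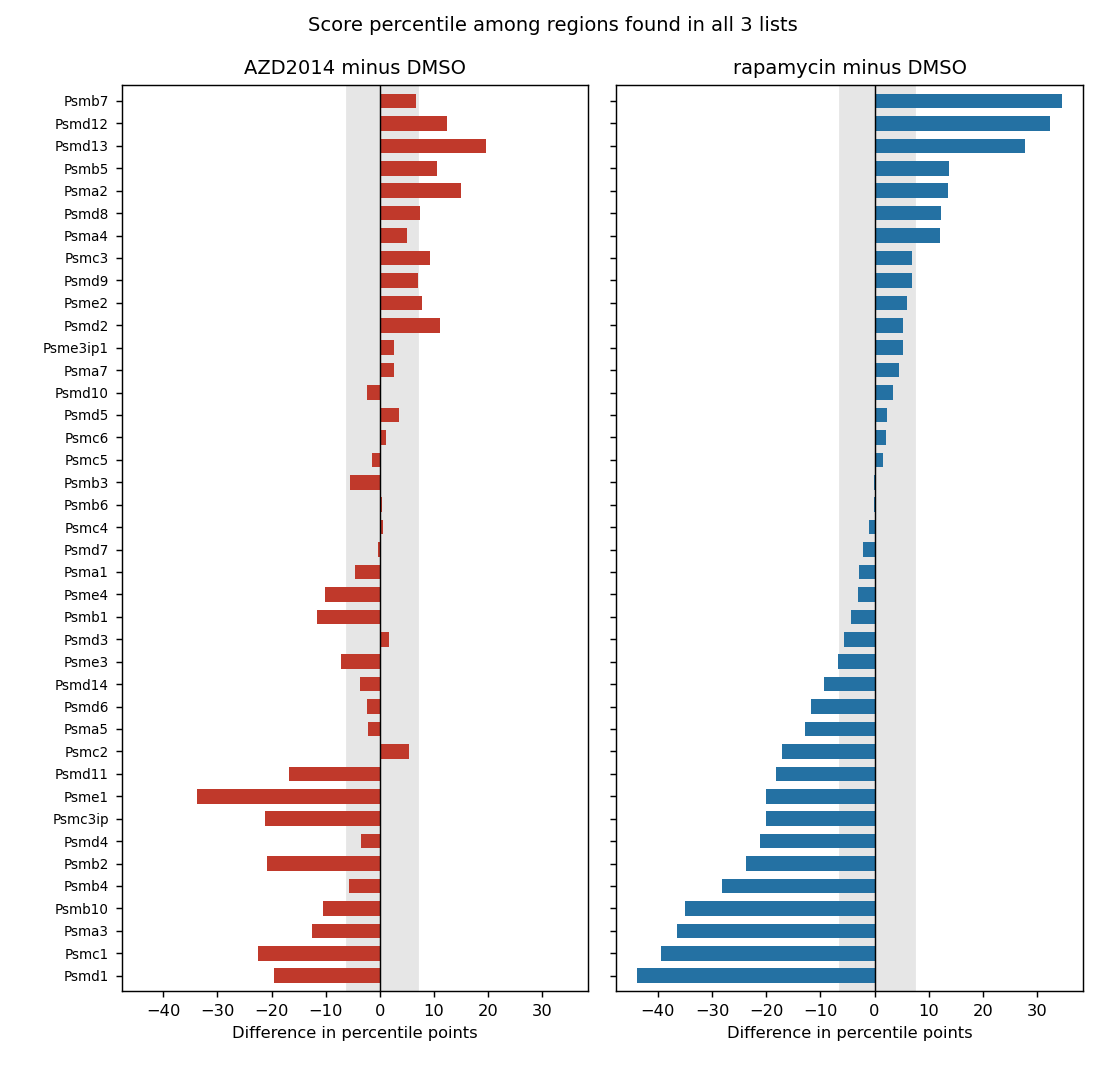
Difference in score percentile (x axis, percentile points, drug minus DMSO) of the 40 proteasome gene-end regions found in all 3 lists, with genes ordered by the rapamycin difference. The grey band is the middle 50% of all 8389 gene-end regions. Psmd1 and Psmb7 are the lowest and the highest bars for rapamycin, and Psme1 is the lowest for AZD2014.

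By role, the beta ring regions had median percentiles of 38.4, 36.5 and 36.1 over 8 genes, and the alpha ring regions 73.4, 82.2 and 77.9 over 6 genes. Thus the lower place of the beta ring genes held in each library with ranks of equal length. Of the 8 beta ring regions, 3 stood higher and 5 lower under AZD2014 (51.2% of all gene-end regions stood higher). Under rapamycin 2 stood higher and 6 lower (50.8%), and among the 6 Psmb3 differed by only -0.04 points. Of the catalytic genes, Psmb5 differed from DMSO by 10.6 points under AZD2014 and 13.8 under rapamycin, Psmb7 by 6.62 and 34.6, and Psmb6 by 0.37 and -0.07. Among the 11 non-ATPase regions, 5 stood higher and 6 lower under AZD2014 (51.2% of all gene-end regions stood higher), and 4 stood higher and 7 lower under rapamycin (50.8%). These counts take Psmd13 as higher under AZD2014, which summed scores turned. Of the 4 activator regions, Psme2 alone stood higher in each comparison, beside the same shares of all gene-end regions.

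Of the 40 member regions, 11 (27.5%) also touched an end of another protein-coding gene. Of all 8389 gene-end regions, 19.4% touched ends of 2 or more genes. The member share counts 1 region per gene, whereas the second share counts each region once however many genes it touches. The 2 shares therefore do not compare, and no excess at the members can be read from them. Neighbours of the 11 included Dnajc2 at Psmc2, Ftsj3 at Psmc5, Mrpl32 at Psma2, Sirt3 at Psmd13, Pcgf2 at Psmb3, Ss18l1 at Psma7 and Rnf31 at Psme2. These 11 regions had a median percentile of 74.4, 75.2 and 79.5, and the other 29 had 62.9, 59.7 and 59.4. The median difference of the 11 was 4.97 points under AZD2014 and 5.20 under rapamycin, and that of the other 29 was -2.37 and -4.41. A peak at such a place cannot be assigned to one of the genes. The same split of differences is not given here for all gene-end regions, so it cannot be called particular to the members. The 11 include Psmd13, whose differences with summed scores were -7.20 points under AZD2014 and 0.88 under rapamycin.

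The member peaks were about as wide as those of other genes under DMSO and rapamycin and somewhat narrower under AZD2014. The median width of the highest-scoring gene-end peak was 787, 866 and 890 bp, beside 783, 942 and 906 bp over all marked genes. Among the 39 genes marked in every list, 32 were wider under AZD2014 than DMSO (85.3% of all such genes were) and 24 wider under rapamycin (77.5%). The widest peaks were at Psmb3 (1267 bp), Psma3 (1177 bp) and Psme2 (1145 bp) under DMSO. Under AZD2014 they were at Psme2 (1474 bp), Psma7 (1355 bp) and Psmd11 (1247 bp), and under rapamycin at Psma7 (1781 bp), Psme2 (1410 bp) and Psma1 (1325 bp). The narrowest rapamycin peaks were at Psmd9 (422 bp), Psmc1 (427 bp) and Psmb4 (444 bp).

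**Figure D4:**
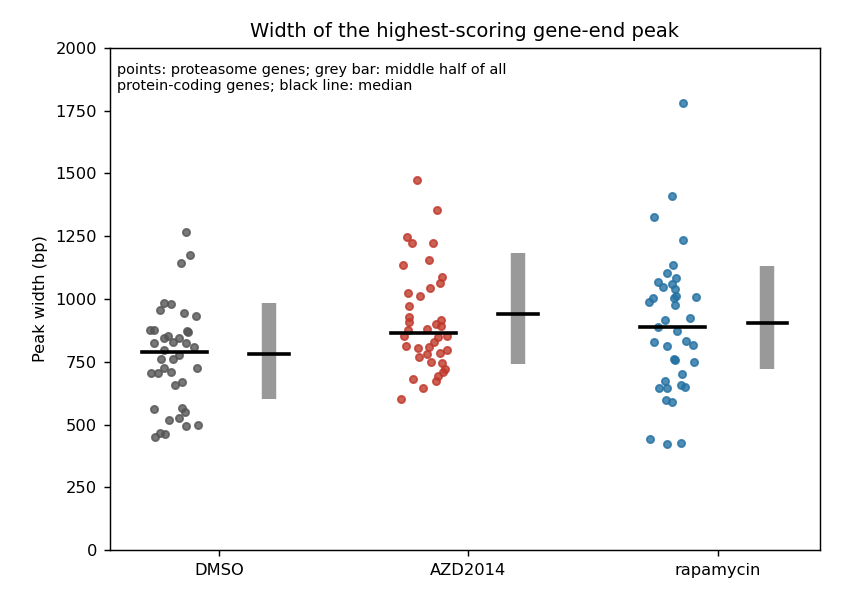
Width in bp (y axis) of the highest-scoring gene-end peak of each proteasome gene (points, medians 787, 866 and 890 bp) beside the middle 50% of all marked protein-coding genes (grey bars, medians 783, 942 and 906 bp) in the 3 lists. Black lines are medians, and Psma7 under rapamycin is the widest point.

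Windows from 20 kb before to 20 kb after each of the 44 genes held 82, 90 and 85 peaks. This is a mean of 1.86, 2.05 and 1.93 per gene, beside 1.32, 1.56 and 1.37 over all protein-coding genes. Genes with a gene-end peak in all 3 lists, a closer comparison, had a higher mean of 2.11, 2.35 and 2.15. The totals stood in the same order as the lengths of the lists, though not in proportion to them. Windows with at least 2 peaks more under AZD2014 than DMSO occurred at 1 member, Psmb3 (5.35% of all genes), and none had 2 or more fewer (0.571%). No member differed by 2 or more between rapamycin and DMSO, where 2.14% of all genes had more and 1.35% had fewer. The Psmb3 window held 2, 4 and 2 peaks. The AZD2014 peaks there with no DMSO peak at their place lay beyond the far end of the gene (97718401 to 97718893 and 97728220 to 97729008 on chromosome 11), with scores of 61.8 and 133, and the rapamycin list had a peak at the second place with a score of 99.2.

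RefSeq promoter sequence, from 250 bases before a start to 50 after it on mm10, was matched for 37 of the 44 genes in 41 windows. In 36 of these windows the start lay inside a peak in all 3 lists, and they are best read beside the 8663 windows of all genes for which that held. The median GC content of the 36 was 59.3% beside 62.7% in the 8663. The ETS motif CCGGAAG, read by a large family of factors active in blood cells, was matched on either strand in 15 of the 36 windows (41.7%), beside 23.2% of the 8663 and 11.6% of all 21263 windows. The core of the antioxidant response element, TGACNNNGC, to which NFE2L1 and NFE2L2 bind with small MAF proteins, was matched in 6 of 36 (16.7%), beside 15.1% and 13%. The SP1 motif GGGCGG was present in 63.9%, beside 72.8% of windows with the start in a peak, and the NF-Y box CCAAT in 36.1%, beside 41.5%. CACGTG was matched in 11.1%, beside 11.4%, TATAAA in 8.33%, beside 5.13%, and the AP-1 motif TGANTCA in 5.56%, beside 3.61%. The nuclear respiratory factor motif was matched in 2.78%, beside 2.86%, and the cAMP response element TGACGTCA in 0 of the 36, beside 3.99%. A match is a run of letters and not a measured binding site.

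**Figure D5:**
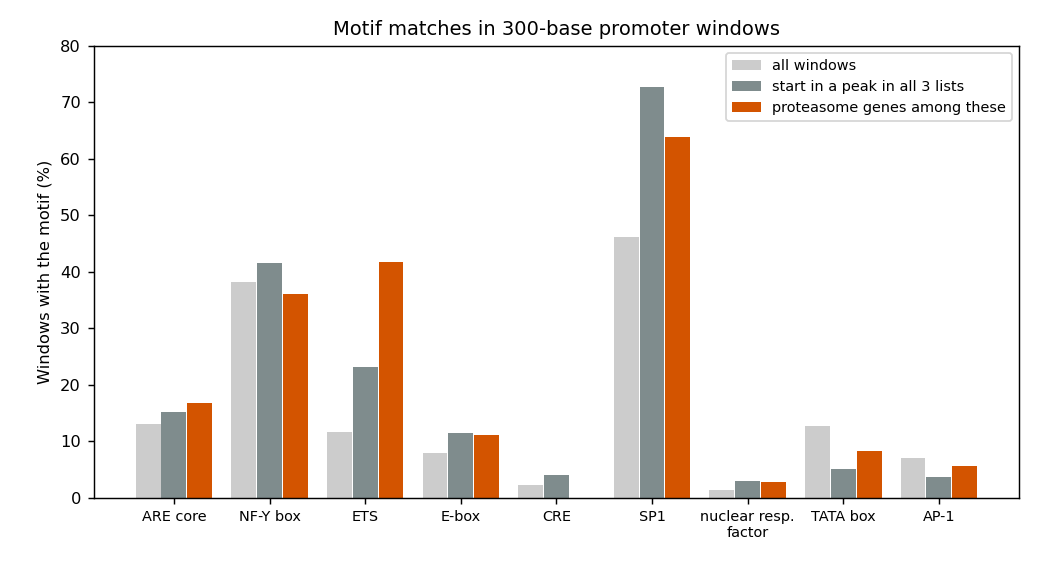
Share of RefSeq promoter windows with each motif (y axis, %) among all 21263 windows (light grey), the 8663 with the start in a peak in all 3 lists (dark grey) and the 36 member windows among these (orange). The 36 include Psmc3ip and Psme3ip1, which encode no known subunit. The ETS motif is in 41.7% of the member windows and in 23.2% of the 8663.

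The ETS matches are shown because this motif set the member promoters farthest apart from the other windows with an open start. They are given for 11 of the 14 genes with a match, 1 per gene. Left out are Psmc3ip and Psme3ip1, which encode no known subunit but count among the 15 windows, and Psmd13, whose match reaches the start. Capitals mark CCGGAAG or its reverse complement, and 15 bases are given on either side where they lie before the start. All 20 ETS matches in member windows lay inside a peak in each of the 3 lists, and 1 of them overlapped another of the motifs searched, SP1 at Psme4.
Psma6, mm10 chr12:55398678-55398714, + strand: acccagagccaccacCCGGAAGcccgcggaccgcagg
Psmc1, mm10 chr12:100110159-100110195, + strand: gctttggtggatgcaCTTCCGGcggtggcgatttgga
Psmc2, mm10 chr5:21785176-21785212, + strand: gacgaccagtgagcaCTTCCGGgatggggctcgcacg
Psmc6, mm10 chr14:45329709-45329745, + strand: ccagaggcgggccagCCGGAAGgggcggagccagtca
Psmd2, mm10 chr16:20651611-20651647, + strand: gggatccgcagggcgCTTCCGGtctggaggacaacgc
Psmd4, mm10 chr3:95042718-95042754, - strand: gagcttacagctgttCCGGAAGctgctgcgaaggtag
Psmd6, mm10 chr14:14120969-14121005, - strand: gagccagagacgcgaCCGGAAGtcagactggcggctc
Psmd11, mm10 chr11:80428589-80428614, + strand: aacgcgagggcgggtCTTCCGGgtgt
Psmd12, mm10 chr11:107479496-107479527, + strand: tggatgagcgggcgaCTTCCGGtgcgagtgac
Psme3, mm10 chr11:101316091-101316127, + strand: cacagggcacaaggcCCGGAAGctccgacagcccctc
Psme4, mm10 chr11:30771707-30771743, + strand: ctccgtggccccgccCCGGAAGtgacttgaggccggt
The 13 marked genes with an ETS match had a median region percentile of 62.9, 59.7 and 59.7. The 21 marked genes with promoter sequence and no match had 72.2, 68.9 and 74.4. Not every gene entered with the region at its promoter. Among the 21, Psma3 entered with its outer region and Psmb10 with that of its inner peak. Psma6 has an ETS match but is not among the 13, and the region at its inner start had percentiles of 88.7, 77.5 and 81.1. A link between the motif and the percentile was not tested.

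The antioxidant response element matches are shown for the 5 genes with one before the start, since NFE2L1 is known to act on proteasome genes through this element. Capitals mark TGACNNNGC or its reverse complement. All 6 matches in member windows lay inside a peak in each list, and the one at Psmd9 overlapped an SP1 match. The match at Psme4 runs across the start and is not shown.
Psmb5, mm10 chr14:54618019-54618057, - strand: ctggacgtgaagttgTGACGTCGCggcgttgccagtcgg
Psmb6, mm10 chr11:70525333-70525356, + strand: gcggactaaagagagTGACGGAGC
Psmc6, mm10 chr14:45329582-45329620, + strand: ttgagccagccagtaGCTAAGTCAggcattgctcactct
Psmd9, mm10 chr5:123228144-123228182, + strand: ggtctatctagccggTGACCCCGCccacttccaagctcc
Psmd12, mm10 chr11:107479278-107479304, + strand: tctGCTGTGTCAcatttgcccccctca
The 6 genes with a match had no common direction by region percentile. Psmb5, Psmd9 and Psmd12 differed from DMSO by 10.6, 6.98 and 12.4 points under AZD2014 and by 13.8, 6.86 and 32.4 points under rapamycin. Psmc6 differed by 1.12 and 2.17 points, Psmb6 by 0.37 and -0.07, and Psme4 by -10.1 and -3.04.

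Genes that work with the proteasome were followed from a list of 35, of which 34 were matched by symbol. Gene-end peaks were present at 31, 32 and 31 of the 34, beside 46.0%, 49.5% and 46.9% of all protein-coding genes. All 6 genes of bound subunits and enzymes (such as the deubiquitinase genes Usp14 and Uchl5) and all 12 of ubiquitin and its delivery (such as Ubb and Rad23b) were marked in every list, as were 43.5% of all protein-coding genes. Of the 7 assembly and inhibitor genes matched, Psmf1, an inhibitor gene, and Ecpas had no gene-end peak in any list. Psmg3, an assembly chaperone gene, had one under DMSO (score 74.0, percentile 25.6) and AZD2014 (71.7, percentile 22.6) and not under rapamycin. Nfe2l1 itself scored 475, 777 and 508 (percentiles 96.5, 98.8 and 95), and Nfe2l2 471, 624 and 570 (96.3, 96.2 and 97). Ddi2, whose product is the protease that activates NFE2L1, scored 169, 409 and 281 (percentiles 62.8, 85.8 and 77.8). Mafg, a small MAF partner gene, was marked under both drugs and not DMSO, but a DMSO peak with a score of 253 stopped 3 bp short of its gene-end stretch. The drug lists also had a weaker peak at the other end of Mafg, which scored 91.7 in the AZD2014 list and 104 in the rapamycin list.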

How the data were processed

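ATAC-seq peaks of 3 libraries, 1 each under DMSO, AZD2014 and rapamycin, were analysed. Per the labels' protocols, 50000 cells per library were transposed for 30 min at 37 °C. The build was mm10 and CASAVA was among the tools, per the submitters' processing notes. Peak names carry the word MACS, per the deposited lists. The sources used here do not give the aligner, the caller's settings, or how duplicates and the read shift were treated. Each peak's score is the authors' deposited value, on no shown common scale. Peaks were called per sample.

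Genes came from RefSeq on GRCm38 patch 6 (mm10), without mitochondrial genes. Overlap was at least 1 bp. Starts and promoters came from the RefSeq promoter table. The members and lists were chosen with earlier results of these data known. The rule for named genes took all members, with full values for those whose status differed or was absent, the highest and lowest 3 percentiles, the largest 5 differences each way, the 3 widest peaks, window differences of 2, and antioxidant response element matches. Mafg and the Psma3 start peak were named after their values were seen. Overlap code was tested on simulated data from 17189 peaks, where 200 of 200 removed and 300 of 300 added peaks were found. Depth is unknown, so no interval was set on a peak. The alternatives tried were other gene-end and window sizes, starts only, score limits, equal list lengths, other peak widths, other rankings and the list without the 3 non-subunits. Python 3.11.15, numpy 2.4.6, pandas 2.3.3 and matplotlib 3.10.9 were used.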

Additional observations from a re-analysis of the deposited data

How the results depend on the processing

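Across 27 results, 128 of 144 alternative values were taken as the same as the value given. For counts this meant a ratio within 1.5. The limit for median region differences was loose, since the whole of the ranges given below was taken as the same. Members marked under DMSO and not AZD2014 were 0 as given and 1 with gene ends of 500 bp, peaks of 200 bp or peak centres (Psmb10) and with equal list lengths (Psme1). In the upper 50% of lists by score, 5 were marked under AZD2014 and not DMSO, 2 under rapamycin and not DMSO, and 4 under DMSO and not rapamycin. The last was 0 with gene ends of 2500 bp or the gene body with 1 kb, an alternative added after seeing the data. Shares of all protein-coding genes under these alternatives are not given here, so none of these counts can be called particular to the members. Window totals under DMSO, AZD2014 and rapamycin were 141, 164 and 148 with 50 kb on either side, 45, 43 and 44 in the gene body alone, and 54 under rapamycin in the upper 50%. The median region differences stayed negative under every alternative, from -4.20 to -0.91 points for AZD2014 and from -4.41 to -0.07 for rapamycin, the highest of which was over regions that hold a RefSeq start. The 11 regions that touch another gene end, taken alone, had positive medians of 4.97 and 5.20. No paired analysis was possible because each group has 1 library. Depth is unknown, and weak peaks near the lowest score may be missing from any list.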
